A study of Mus musculus with 4 samples.

Results

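Rows for gene families of early embryo genome activation were followed in an ATAC-seq experiment on mouse embryonic stem cells. They were chosen by gene symbol alone: every row whose symbol begins with Zscan4, Obox, Pramel, Pramef, Usp17l, Tcstv, Tdpoz, Oog and a digit, Tcl1b, Duxf or Khdc1, and the 8 single genes Zfp352, Patl2, Nelfa, Abcb5, Zfp750, Usp26, Arg2 and Ubtfl1. This gave 69 of the 46406 rows, 61 in families and 8 single genes. In ATAC-seq the transposase Tn5 inserts adapters where chromatin is open, and each deposited value is a read density over the exons of 1 gene. The cells were J1, an established male line, cultured without a feeder layer in standard medium conditions and labelled with passage PN+8 in both groups. The control group was 2 libraries labelled wild type, and the other was 2 libraries with the genotype Zscan4 OE, in which Zscan4 was overexpressed. The sources used here do not give the Zscan4 copy, the promoter that drove it, the way it was introduced, or whether libraries came from separate cultures or clones. A p-value therefore measures no more than how these 4 libraries vary, which may be technical variation.

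The first division of the mouse embryo brings a burst of transcription from genes that most other cells keep silent. The double homeobox factor Dux acts early in this program, and its targets include the Zscan4 cluster, which codes for SCAN-domain zinc finger proteins linked to telomere maintenance. A small and changing share of embryonic stem cells passes through a similar state. Many of these genes sit in tandem arrays of similar copies, where a short read can match several places.

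Promoter sequences are shown first because they show how alike such copies are. RefSeq (GRCm38.p6) paired 66 of the 69 symbols with a gene, 5 of them through an older name, and gave a promoter of 300 bases, from 250 before the start, for 38. The Zscan4 copies on chromosome 7 are printed 5′ to 3′ along the gene, Zscan4c from chr7:11005495-11005794 on the plus strand, Zscan4d from chr7:11166099-11166398 on the minus strand and Zscan4f from chr7:11397665-11397964 on the plus strand. Capitals mark bases inside a 31-base stretch that also occurs, on either strand, in the promoter of another gene of the table of promoters.
Zscan4c: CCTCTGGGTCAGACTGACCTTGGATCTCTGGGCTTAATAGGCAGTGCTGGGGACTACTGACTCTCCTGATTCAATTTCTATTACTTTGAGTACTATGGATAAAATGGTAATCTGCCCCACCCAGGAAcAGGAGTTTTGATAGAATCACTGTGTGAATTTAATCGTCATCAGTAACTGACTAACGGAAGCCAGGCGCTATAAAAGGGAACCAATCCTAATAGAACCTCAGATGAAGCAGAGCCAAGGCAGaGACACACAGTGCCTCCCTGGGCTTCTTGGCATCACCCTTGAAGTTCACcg
Zscan4d: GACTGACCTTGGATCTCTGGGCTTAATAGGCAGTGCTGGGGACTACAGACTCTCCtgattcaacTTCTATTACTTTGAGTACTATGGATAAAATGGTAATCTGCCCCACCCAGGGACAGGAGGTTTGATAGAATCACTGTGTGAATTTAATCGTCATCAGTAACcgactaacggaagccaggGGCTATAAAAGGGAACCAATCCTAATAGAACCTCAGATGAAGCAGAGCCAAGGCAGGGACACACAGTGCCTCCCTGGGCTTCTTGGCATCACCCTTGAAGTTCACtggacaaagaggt
Zscan4f: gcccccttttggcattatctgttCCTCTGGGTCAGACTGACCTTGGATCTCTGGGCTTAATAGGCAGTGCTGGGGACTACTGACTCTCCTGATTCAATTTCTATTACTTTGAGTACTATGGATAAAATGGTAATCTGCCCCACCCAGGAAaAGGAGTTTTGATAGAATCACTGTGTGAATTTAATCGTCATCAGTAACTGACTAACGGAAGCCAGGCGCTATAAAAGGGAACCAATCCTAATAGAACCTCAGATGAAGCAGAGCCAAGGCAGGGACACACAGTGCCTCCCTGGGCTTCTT

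In these promoters 296, 260 and 276 of the 300 bases were in capitals, in the order printed. A global alignment of the Zscan4c and Zscan4f windows had 275 identical positions and 2 mismatches, besides gaps from their offset. Zscan4c and Zscan4d had 281 identical positions and 8 mismatches. Each of the 3 held the letters TATAAA on the gene's strand, beginning 54, 65 and 31 bases before the start. Those letters stood on the gene's own strand in 8 of the 38 member promoters (21.1%) and in 8.32% of the 32851 promoters of the same length. The 8 were Zscan4c, Zscan4d, Zscan4f, Usp17lb, Usp17lc, Usp17ld, Oog3 and Obox3, so copies that share sequence were counted separately. In Obox3, Usp17ld and Usp17lc the letters began 189, 110 and 88 bases before the start, and in Usp17lb and Oog3 31 and 29.

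Tcl1b2 and Tcl1b4 are another pair of near-copies, on chromosome 12 (chr12:105146769-105147068 and chr12:105202145-105202444, both plus strand). They are printed with the same marking, beside Pramel6 (chr2:87506315-87506614, plus strand), whose promoter shared no 31-base stretch.
Tcl1b2: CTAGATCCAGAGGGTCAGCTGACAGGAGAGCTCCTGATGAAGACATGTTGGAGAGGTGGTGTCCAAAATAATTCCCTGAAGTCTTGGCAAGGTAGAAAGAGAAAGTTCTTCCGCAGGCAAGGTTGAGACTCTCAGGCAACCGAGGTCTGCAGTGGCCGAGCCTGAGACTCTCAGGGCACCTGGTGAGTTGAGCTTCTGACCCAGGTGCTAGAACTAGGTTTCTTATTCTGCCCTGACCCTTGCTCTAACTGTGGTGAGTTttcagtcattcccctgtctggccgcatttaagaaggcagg
Tcl1b4: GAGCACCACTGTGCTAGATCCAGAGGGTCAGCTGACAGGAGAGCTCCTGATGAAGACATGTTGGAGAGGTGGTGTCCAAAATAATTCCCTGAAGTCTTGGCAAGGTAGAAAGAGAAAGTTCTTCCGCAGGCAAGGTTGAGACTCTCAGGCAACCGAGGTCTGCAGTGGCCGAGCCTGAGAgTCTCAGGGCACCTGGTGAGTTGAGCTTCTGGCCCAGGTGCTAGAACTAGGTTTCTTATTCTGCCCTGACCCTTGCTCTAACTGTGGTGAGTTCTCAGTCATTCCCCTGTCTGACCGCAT
Pramel6: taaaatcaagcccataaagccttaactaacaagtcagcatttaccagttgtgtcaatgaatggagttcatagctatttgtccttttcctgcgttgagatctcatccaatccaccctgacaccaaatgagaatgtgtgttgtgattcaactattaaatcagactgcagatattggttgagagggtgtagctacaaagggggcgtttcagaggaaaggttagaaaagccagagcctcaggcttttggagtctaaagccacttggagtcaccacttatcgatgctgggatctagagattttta

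The promoter of Zfp352, a zinc finger gene of the 2-cell stage on chromosome 4, is printed because it held a tandem array (chr4:90218570-90218869, plus strand). Here capitals mark each TAATCC, the letters of a core bound by homeodomains of the Otx and Obox type.
Zfp352: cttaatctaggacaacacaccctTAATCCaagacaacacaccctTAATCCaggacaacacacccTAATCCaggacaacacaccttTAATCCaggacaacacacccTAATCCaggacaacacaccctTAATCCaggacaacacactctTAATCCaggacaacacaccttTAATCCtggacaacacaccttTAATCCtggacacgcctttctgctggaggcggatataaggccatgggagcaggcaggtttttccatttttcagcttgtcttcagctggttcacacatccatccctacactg

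It held 9 copies of TAATCC, all on the gene's strand and 20 to 21 bases apart. No other promoter in the table had 9 or more, and 0.359% of promoters had 2 or more. TAATCC was searched on both strands, as were TGCACAC, letters reported for Zscan4 binding, and a palindrome of the Dux type, and no matches of different motifs overlapped in a member promoter. TAATCC was in 6 of 38 member promoters (15.8%) against 7.06% of all. The 6 include Pramel4 and Pramel5, whose windows aligned with 267 identical positions and 13 mismatches. TGCACAC was in 1 of 38, that of Abcb5, against 4.4%. The Dux palindrome was in 0 of 38 against 0.0335%. A match is a description of letters, and these counts say nothing of where a protein was bound.

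The libraries were shallow, and the families drew few reads. Control 1 had a library total of 1061428 reads, control 2 of 2903602, Zscan4 OE 1 of 3605774 and Zscan4 OE 2 of 4899494, of which 9.38% to 12.8% lay on the rows of the table. All 69 rows together had 693 reads. No read at all was listed for 16 of the 69 rows (23.2%), against 4.58% of all rows. Another 16 rows had 1 read, 11 had 2 to 4, 12 had 5 to 19, and 14 had 20 to 99. None reached 100, where 5.65% of all rows did. Reads were recovered as the fewest whole reads that fit a row's values, and a row's true reads can be a multiple of them. For Obox4-ps3 the annotated span is exactly 2 times the recovered length, so its true reads may be 2 times those given.

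**Figure D1:**
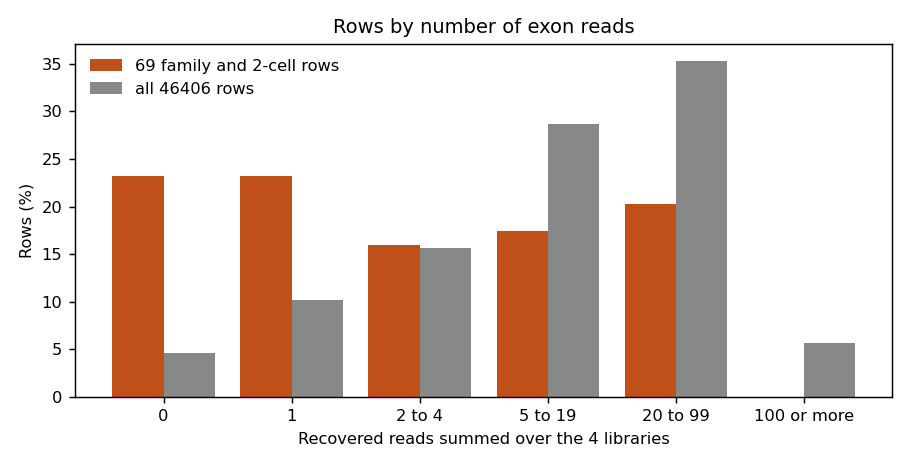
Share of rows (vertical axis, percent) by the number of recovered exon reads summed over the 4 libraries (horizontal axis), for the 69 rows of the early embryo families and single genes and for all 46406 rows. Rows without a read made up 23.2% of the former and 4.58% of the latter.

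The shortage held within each kind of gene. Of 46 members annotated as protein coding, 7 (15.2%) were at 0 throughout, against 1.03% of 20268 protein-coding rows. Their median was 4 reads, against 43. Of 19 members annotated as pseudogenes, 8 (42.1%) were at 0, against 11.1% of 6117, with medians of 1 and 3 reads. In single libraries a read was found in 36.2% of members in control 1, 42% in control 2, 52.2% in Zscan4 OE 1 and 50.7% in Zscan4 OE 2. For all rows these shares were 59.6%, 74.7%, 80.4% and 83.9%. The shares of all rows rose with depth throughout. The share of members was about level in the 2 Zscan4 OE libraries, with 36 rows in Zscan4 OE 1 and 35 in the deeper Zscan4 OE 2. Scaled down to the total of control 1, the expected shares of members were 36.2%, 27.3%, 33.6% and 31.5%, and those of all rows 59.6%, 57.5%, 61.1% and 59.2%. At equal depth the Zscan4 OE libraries therefore lay between the 2 controls for members.

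Rows without reads lay among those with shared promoter sequence. The 6 members at 0 with a promoter in the table had a median of 58.1% of their 31-base stretches in another gene's promoter (38.5% to 80%). For 14 members with 1 to 4 reads the median was 34.3% (0% to 88.5%), and for 8 with 5 to 19 reads it was 32.4% (0% to 80.7%). The 10 members with 20 or more reads had a median of 0% and a highest value of 0.37%. Over all 32851 promoters the median was 0%, and 4.41% had more than 50% shared, against 12 of 38 members (31.6%). Promoters are not the counted exons, and the sources used here do not say how reads matching several copies were treated, so a loss of such reads was not tested.

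**Figure D2:**
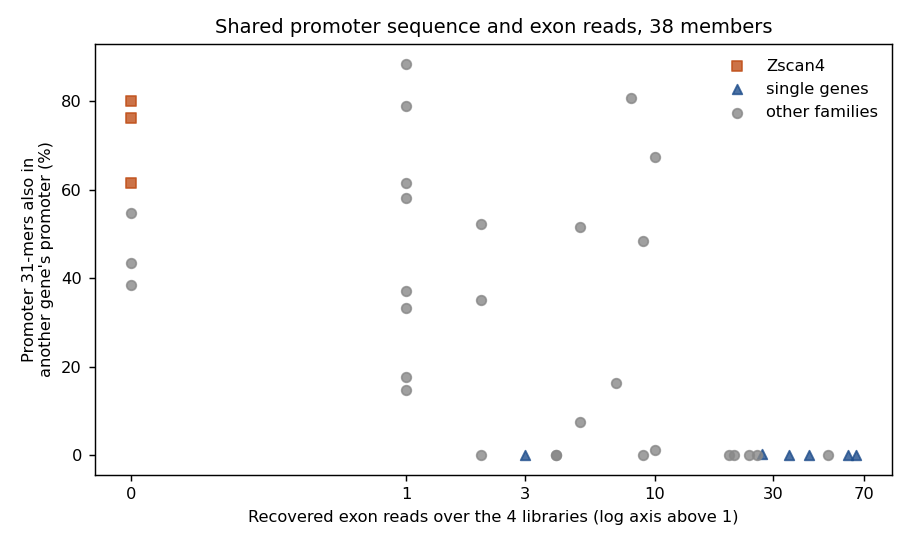
Each point is 1 of 38 members with a RefSeq promoter. The horizontal axis gives its recovered exon reads over the 4 libraries (log axis above 1) and the vertical axis the percent of 31-base stretches of its promoter found in another gene's promoter. The 10 members with 20 or more reads lie at or near 0%, and the 3 Zscan4 genes lie at 0 reads and 61.5% to 80%.

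The Zscan4 genes themselves had almost no reads. Zscan4c (chromosome 7, 11005745 to 11010547, GRCm38), Zscan4d (11161643 to 11166148), Zscan4f (11397915 to 11402318), Zscan4a, Zscan4e and Zscan4-ps3 had 0 reads in each of the 4 libraries. Among pseudogenes, Zscan4-ps1 had 1, 0, 1 and 1 reads in control 1, control 2, Zscan4 OE 1 and Zscan4 OE 2, the order used for reads from here on. Zscan4-ps2 had 0, 0, 1 and 0 reads. The family therefore held 4 reads, and the targeted gene checked no label. A count of 0 allows up to 3 reads in a library, or 2.83, 1.03, 0.832 and 0.612 RPM (reads per 1000000 reads of the library total). The 8 members span 820 kb, in which 11 other rows lay. Of these 3 were at 0 (27.3%), and together they had 19 reads.

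Duxf3, the row of the Dux gene upstream of Zscan4 in the 2-cell program, was as bare. It had 1, 0, 1 and 0 reads (chromosome 10, 58229505 to 58233089, GRCm38), so 1 library of each group had a read and the groups overlapped. In bulk libraries fewer cells in a 2-cell-like state and less open DNA per cell cannot be told apart. The promoter of Duxf3 shared no 31-base stretch with that of another gene in the table of promoters. It was the only Duxf promoter there, so other copies could not be compared, and a loss of reads matching several copies was not tested.

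The Obox genes code for oocyte-type homeobox proteins and sit in an array of 1322 kb on chromosome 7 (14517971 to 15839679). The table had 20 rows, 15 of them named as pseudogenes, and 5 rows were at 0: Obox4-ps37, Obox4-ps7, Obox4-ps11, Obox3-ps1 and Obox6-ps1. Summed reads were 4, 4, 13 and 22, or 3.77, 1.38, 3.61 and 4.49 RPM. Control 1 lay between the Zscan4 OE libraries, so the groups overlapped (2.57 ± 1.69 and 4.05 ± 0.626 RPM, SD, n = 2). The ratio of 1.57 was 2.94 without control 1 and 1.07 without control 2.

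Reads in Zscan4 OE alone were found in 7 Obox rows, and reads in controls alone in 4. Obox6 (chromosome 7, 15833250 to 15839679) had 0, 0, 2 and 3 reads. Obox3-ps8, a lone copy on chromosome 17, had 0, 0, 1 and 6. Obox4-ps3 had 0, 0, 3 and 2 and Obox4-ps2 had 0, 0, 1 and 1. Obox4-ps1 had 0, 0, 0 and 3, and Obox4-ps34 and Obox5 had 0, 0, 0 and 1 each. Obox8 had 0, 1, 4 and 2 reads. In Obox6, Obox3-ps8, Obox4-ps3, Obox4-ps2 and Obox8 both Zscan4 OE libraries were above both controls, as they were in 19.6% of all tested rows. The rows with reads in controls alone were Obox3 (0, 1, 0 and 0), Obox4-ps9 and Obox4-ps16 (1, 0, 0 and 0 each) and Obox4-ps38 (0, 1, 0 and 0). The protein-coding rows Obox3, Obox5, Obox6, Obox7 and Obox8 together had 1, 2, 7 and 6 reads. Among all 69 rows, 16 had reads in Zscan4 OE and 0 in both controls (23.2%, against 15.4% of all rows), and 8 had reads in controls alone (11.6%, against 3.86%). The Zscan4 OE totals were larger than the control totals, so a row with few reads had more chances to be seen there. The part of depth in these counts was not tested.

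Most family reads fell on PRAME-type genes, which code for leucine-rich repeat proteins of oocytes, early embryos and germ cells. The Pramel, Pramef and Oog rows held 286 of the 391 reads on family rows, or 41.3% of the 693 reads that include the single genes. Of their 15 rows 1, Pramel4, was at 0. RefSeq files the Pramef genes under Pramel names. The PRAME-type rows with most reads, both on chromosome 4, were Pramef8 (RefSeq Pramel12, 143412155 to 143421091) and Pramef12 (RefSeq Pramel13, 144391674 to 144408467). Pramef8 stood, in RPKM (reads per kilobase of exon, scaled to the library total), at 2.03 and 1.07 in controls against 2.32 and 1.81 in Zscan4 OE, from 9, 13, 35 and 37 reads. Pramef12 was at 3.3 and 1.07 RPKM and at 1.72 and 1.35, from 9, 8, 16 and 17 reads. In both rows the 2 controls lay further apart than the 2 Zscan4 OE libraries, and the groups overlapped. Pramef12os, the row named as opposite strand to Pramef12, had 2, 2, 14 and 7 reads, with 5.06 RPKM in Zscan4 OE 1 and 0.898 to 2.46 in the others. An ATAC-seq read carries no strand of transcription, so reads of Pramef12os and Pramef12 cannot be told apart where the rows overlap.

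Within this group Pramel6 and Pramef20 had both Zscan4 OE values above both controls, and Pramel7, the neighbour of Pramel6, did not. Pramel6 (chromosome 2, 87506565 to 87510865), a gene of naive stem cells, was at 0.452 and 0.496 RPKM in controls and 0.932 and 1.47 in Zscan4 OE, from 1, 3, 7 and 15 reads. The log2 difference was 1.15 (SE 0.542; adjusted p = 0.869, limma). Pramel7, known to promote loss of the DNA methylation cofactor Uhrf1, was at 0.441 and 0.968 RPKM in controls and 1.56 and 0.478 in Zscan4 OE, and overlapped. Pramef20 (RefSeq Pramel15) had 0, 3, 8 and 10 reads, at 0 and 0.72 RPKM in controls and 1.55 and 1.42 in Zscan4 OE. Pramel1 was at 0.337, 0.493, 0.298 and 0.877 RPKM, with Zscan4 OE 1 lowest and Zscan4 OE 2 highest. Summed over the 7 Pramel rows the values were 3.77 and 4.82 RPM in controls and 7.49 and 7.14 in Zscan4 OE, 1.703-fold higher and without overlap. The exact Poisson 95% intervals, which cover counting error only, ran from 1.03 to 9.65 in control 1 and from 4.93 to 10.9 in Zscan4 OE 1, and so overlapped. Without Pramel6 the ratio was 1.46. The 6 Pramef rows gave 18.8 and 9.3 RPM in controls and 20.5 and 14.5 in Zscan4 OE, and their ratio of 1.24 was 0.929 without control 2 and 1.88 without control 1.

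The oogenesin genes, oocyte members of the PRAME family, went the other way. Oog4 (chromosome 4, 143437164 to 143450324) had 2, 5, 3 and 0 reads, at 0.951 and 0.869 RPKM in controls and 0.42 and 0 in Zscan4 OE. Oog3 (144157556 to 144162651) had 1, 2, 1 and 0 reads, at 0.505 and 0.369 RPKM in controls and 0.149 and 0 in Zscan4 OE. In both rows the controls lay above both Zscan4 OE libraries, and the adjusted p was 0.869 for each (limma). The log2 difference of Oog4 was −2.15 (SE 1.04), −0.96 without Zscan4 OE 2 and −3.34 without Zscan4 OE 1. Summed, the family was at 2.83 and 2.41 RPM in controls and 1.11 and 0 in Zscan4 OE. The exact interval of Zscan4 OE 2 ran from 0 to 0.753 RPM and that of Zscan4 OE 1 from 0.302 to 2.84. The interval of control 1, from 0.583 to 8.26, overlapped both. That of control 2, from 0.969 to 4.97, overlapped the interval of Zscan4 OE 1 only.

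**Figure D3:**
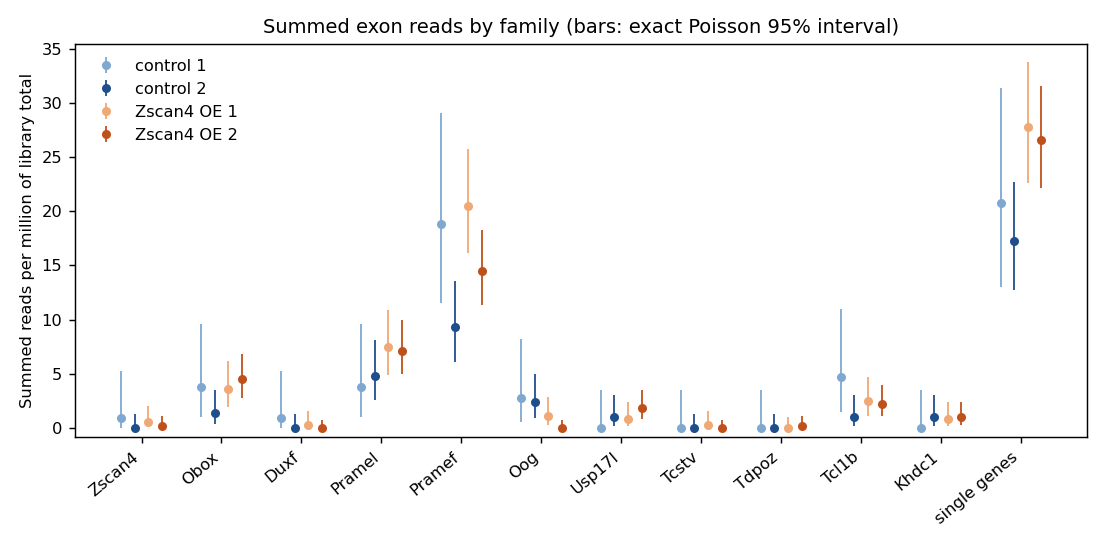
Summed exon reads of each family in RPM (vertical axis), 1 point per library, with exact Poisson 95% intervals for counting error. The Pramel rows and the single genes have both Zscan4 OE points above both control points, the Oog rows have them below, and the intervals of most families overlap widely.

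The smaller arrays held under 30 reads each. Tcl1b genes, relatives of the Akt coactivator Tcl1 in 1 array on chromosome 12 (105147019 to 105206993), had 5, 3, 9 and 11 reads over 5 rows. Tcl1b1 had reads in Zscan4 OE alone (0, 0, 5 and 2), Tcl1b4 had 0, 1, 1 and 6, Tcl1b2 had 3, 1, 3 and 3, and Tcl1b3 had reads in controls alone (1, 1, 0 and 0). Their members thus pointed in both directions. The family was at 4.71 and 1.03 RPM in controls and 2.5 and 2.25 in Zscan4 OE, and its ratio of 0.825 was 2.29 without control 1 and 1.28 without Tcl1b2. Usp17l genes, which code for deubiquitinating enzymes, had 0, 3, 3 and 9 reads over 6 rows, of which Usp17le, Usp17ld and Usp17le-ps were at 0. Usp17lc had 0, 2, 0 and 7 reads and Usp17lb 0, 1, 3 and 1. In the 1613 kb that the Usp17l rows span on chromosome 7, 92 other rows lay, and 1 of them was at 0 (1.09%), against 3 of the 6 family rows. In the span of the Obox rows 1 of 4 other rows was at 0 (25%), and in that of the Pramef rows 4 of 14 (28.6%).

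Khdc1 genes, which code for KH-domain proteins, had 0, 3, 3 and 5 reads over 3 rows, 9 of them on Khdc1b (0, 3, 3 and 3). Of the BTB-type Tdpoz genes, Tdpoz4 was at 0 and Tdpoz1 had 1 read, in Zscan4 OE 2. Tcstv1, of a gene group variable at the 2-cell stage, had 1 read, in Zscan4 OE 1. None of these families had groups that lay apart.

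The 8 single genes held 302 of the 693 reads (43.6%). Of the 6 with a promoter in the table, 5 shared no 31-base stretch with another gene. Summed, they were at 20.7 and 17.2 RPM in controls and 27.7 and 26.5 in Zscan4 OE (19 ± 2.48 and 27.1 ± 0.848, SD, n = 2), 1.43-fold higher and without overlap between groups. The interval of control 1, from 13 to 31.4, covered both Zscan4 OE values, and that of control 2, from 12.8 to 22.7, covered neither. Divided by the reads on all rows in place of library totals the ratio was 1.38.

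Patl2 and Zfp750 were the 2 single genes whose Zscan4 OE values both lay above the controls. Patl2 (chromosome 2, 122120108 to 122186189), an RNA-binding repressor of translation in oocytes, was at 0.774 and 1.41 RPKM in controls and 3.08 and 1.76 in Zscan4 OE, from 2, 10, 27 and 21 reads. Its log2 difference was 1.08 (SE 0.555; adjusted p = 0.869, limma), and 0.68 without control 1 or 0.69 without Zscan4 OE 1. Zfp750 (chromosome 11, 121510976 to 121519342), an epidermal differentiation factor, was at 0 and 0.533 RPKM and at 1.29 and 1.33, from 0, 5, 15 and 21 reads, with a log2 difference of 2.48 (SE 1.07; adjusted p = 0.869). It was 1.15 without control 1 and 3.81 without control 2. The 2 Zscan4 OE values of Zfp750 were nearly equal, while control 1 had no read.

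The other single genes overlapped between groups, save Zfp352. Nelfa (chromosome 5, 33897916 to 33936301), a subunit of the negative elongation factor that has been linked to entry into the 2-cell-like state, was at 0.955 and 1.4 RPKM in controls and 0.773 and 1.76 in Zscan4 OE. The Zscan4 OE libraries stood on either side of the controls, and the log2 difference was 0.02 (SE 0.594). Abcb5, a membrane transporter gene, was at 0.861 and 0.551 RPKM in controls and 1.01 and 0.699 in Zscan4 OE. Usp26, an X-linked deubiquitinase gene of the testis, was at 0.912 and 0.167 in controls and 0.738 and 0.889 in Zscan4 OE. Arg2, the mitochondrial arginase gene, was at 2.64 and 0.724 in controls and 2.52 and 1.29 in Zscan4 OE. In Usp26 and Arg2 the controls were further apart than the group means. Ubtfl1, an HMG-box gene of the preimplantation embryo, was at 0.638 and 0.466 RPKM in controls and 0.375 and 0.553 in Zscan4 OE. Zfp352 had 1, 1, 1 and 0 reads, and its RPKM of 0.414 and 0.151 in controls lay above 0.122 and 0 in Zscan4 OE, an order that 1 more read in Zscan4 OE 1 would change.

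**Figure D4:**
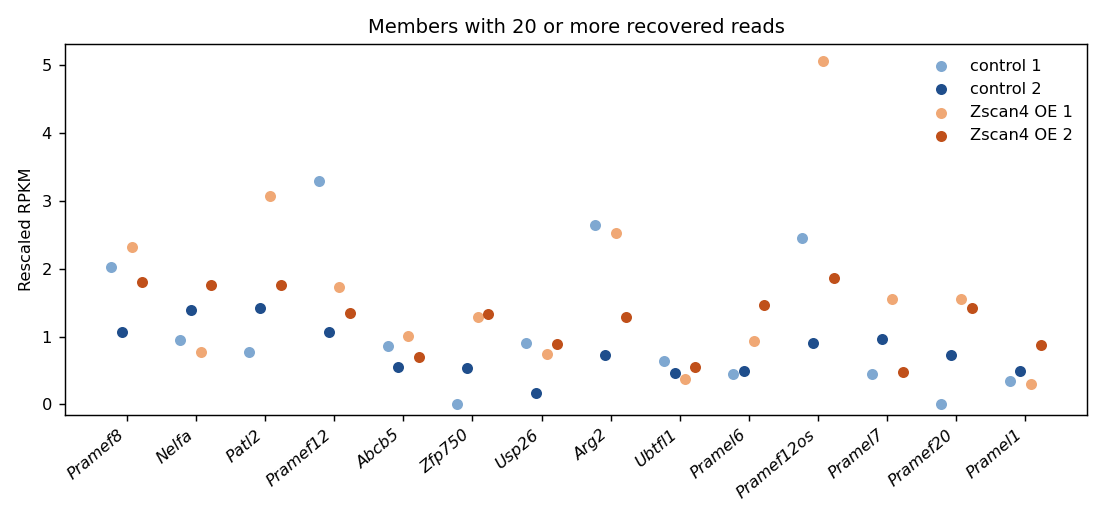
Rescaled RPKM (vertical axis) in each of the 4 libraries for the 14 members with 20 or more recovered reads, ordered by reads. Both Zscan4 OE points lie above both control points in Patl2, Zfp750, Pramel6 and Pramef20, and the groups overlap in the other 10.

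Across the table no row was called, members included. limma was run on log2(RPKM + 0.1) where the mean RPKM reached 0.1, two-sided with p-values adjusted by Benjamini-Hochberg across the 42989 tested rows at a threshold of 0.05, and 0 rows passed (0.0%), the smallest adjusted p being 0.156. Of the 69 members 41 passed the filter, 12 with 1 read each did not, and 16 had no read. Among these 41 the count called was 0 and the smallest adjusted p was 0.192, that of Obox4-ps3, with a log2 difference of 4.55 (SE 0.747). A fitted difference against 0 reads depends on the added 0.1 and is no bound. At an unadjusted p under 0.05, 3 members were higher (Obox4-ps3, Obox4-ps2 and Tcl1b1, each with 0 reads in both controls), against 5.09% of tested rows, and 0 were lower, against 1.33%. These shares of the 41 were near that background.

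The differences of the tested members had both signs. A positive log2 difference was found in 25 of 41 members and a negative one in 16, where 62.0% of all tested rows were positive. The median was 0.37 over the members and 0.28 over all tested rows. Groups did not overlap in 11 members with higher values in Zscan4 OE, against 19.6% of tested rows, and in 4 with lower values, against 10.1%. The 4 were Oog3, Oog4, Tcl1b3 and Zfp352. Beside those named above, the 11 included Pramel, an X-linked gene with 0, 0, 1 and 3 reads. Among the 14 members with 20 or more reads 12 differences were positive, the 2 negative ones being Pramef12 and Ubtfl1, against 60.3% of such rows in the table. Their median was 0.40, against 0.14, and whether they differ from the table was not tested. In 4 of them groups did not overlap, all higher, where 20% of such rows were higher and 11% lower. Quantile normalization turned the members' median to −0.12 and that of all rows to −0.04, with 18 positive and 23 negative members, so the direction of the members together depended on the scaling. Without Zscan4 OE 1 limma called 7 members higher (Obox3-ps8, Obox4-ps1, Obox4-ps2, Obox4-ps3, Obox6, Pramel and Tcl1b1), where 10.5% of tested rows were called. Without Zscan4 OE 2 it called 6, the same without Obox4-ps1, against 9.05%. All had 0 reads in both controls. The controls of such a row are equal, and a lone Zscan4 OE library adds no spread of its own. The fit therefore had no spread within these rows to set against the difference. These calls cannot decide whether the groups differ, and no conclusion is drawn from them.

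**Figure D5:**
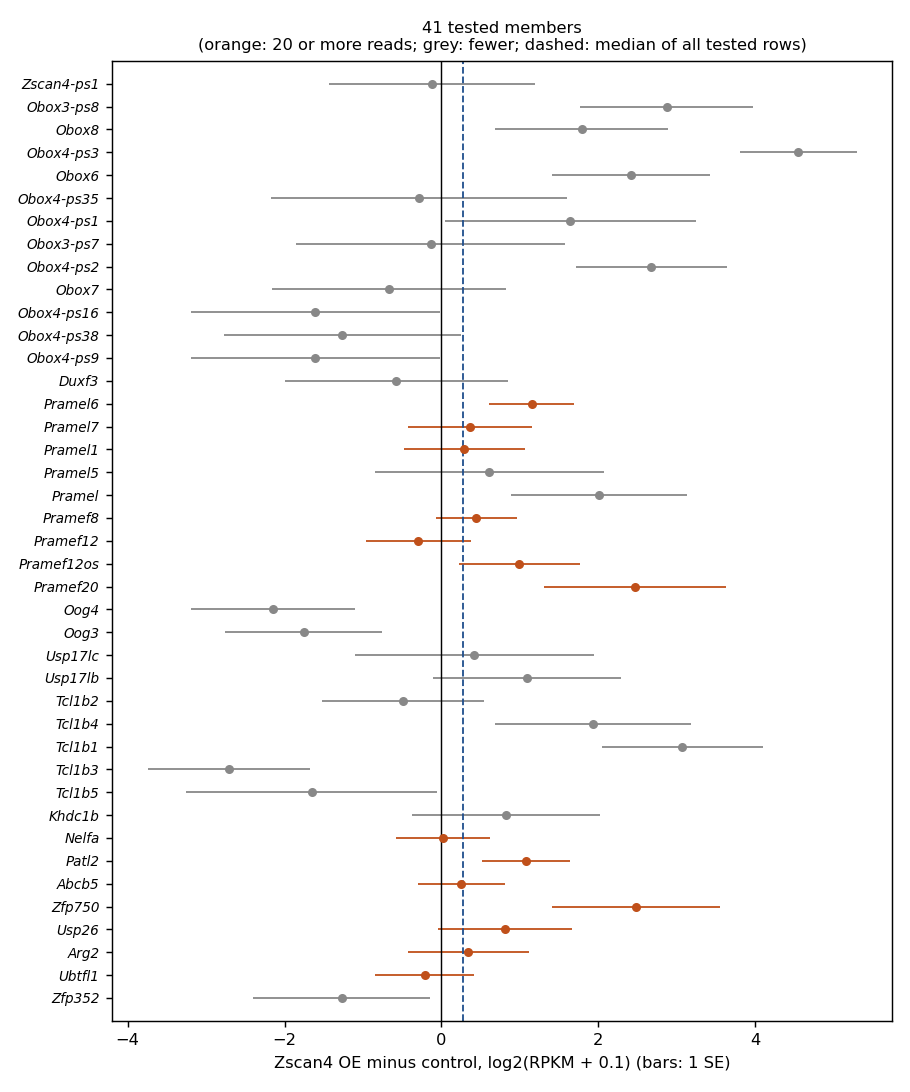
Difference between Zscan4 OE and control on the log2(RPKM + 0.1) scale (horizontal axis, bars of 1 SE) for the 41 tested members, with 20 or more reads in orange and fewer in grey. The dashed line is the median of all tested rows, 0.28, and the widest bars belong to rows of a few reads.

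Taken as 1 sum, the 69 rows were at 56.5 and 38.2 RPM in controls and 65.7 and 58.2 in Zscan4 OE. The means were 47.4 ± 12.9 and 61.9 ± 5.34 (SD, n = 2), a ratio of 1.31, while all rows of the table together had a ratio of 1.046. The groups did not overlap, but control 1 and Zscan4 OE 2 differed by less than counting error (intervals of 43.1 to 72.8 and 51.6 to 65.3). The interval of control 2, from 31.4 to 46, lay below those of both Zscan4 OE libraries. The exact permutation test over libraries, two-sided, gave p = 0.333, the smallest that 2 against 2 allows. Without control 2 the ratio was 1.096 and without control 1 it was 1.62, so the size of the difference rested on which control was kept. Zfp750, Patl2 and Pramel6 accounted for 55.6% of the difference, and leaving these 3 out gave a ratio of 1.15. The 55 members with fewer than 20 reads had a ratio of 0.98. Among the gene lists below, ratios ran from 0.707 for primitive endoderm genes to 1.35 for genes known to hold the 2-cell-like state back. The latter list was at 120.6 and 107.1 RPM in controls and 186.1 and 120.6 in Zscan4 OE, so its ratio rested largely on Zscan4 OE 1. Whether the ratio of the 69 rows is particular to them was not tested.

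Other genes of the 2-cell program and its regulators gave no call. Of 26 further 2-cell genes, such as the Trim43 genes, 18 were in the table, 5 of these were at 0, and 8 were tested, 4 with a positive and 4 with a negative difference. Their sums were 13.2 and 13.1 RPM in controls and 13.3 and 14.7 in Zscan4 OE. Mael, a piRNA pathway gene, had 1, 5, 9 and 18 reads, and Tmem92 had 0, 6, 0 and 1. Of 8 genes known to promote the 2-cell-like state or act beside it, 6 differences were positive and 2 negative, and of 18 genes known to hold it back, among them Trim28, Chaf1a and Kdm1a, 14 were positive and 4 negative. The adjusted p was above 0.05 for every tested gene in these lists (0 called, limma), and at an unadjusted p under 0.05 the count was also 0.

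Marker lists were read beside the labelled cell type. A read on a listed gene does not check the label, since only 1.03% of 20268 protein-coding rows had no read. All 12 pluripotency genes had reads, with sums of 78.2 and 43.7 RPM in controls and 92.4 and 61.8 in Zscan4 OE. Fibroblast genes, which would mark feeder cells, had reads in 11 of 11 and sums of 51.8 and 50.3 RPM in controls and 43.3 and 43.7 in Zscan4 OE. Primitive endoderm genes, 8 of 8 with reads, were at 58.4 and 47.9 RPM in controls and 39.4 and 35.7 in Zscan4 OE, and trophectoderm genes, 8 of 8, at 24.5, 18.6, 25 and 22.7. The fibroblast and endoderm sums were lower in both Zscan4 OE libraries while the members' sum was higher, and their part in it was not tested. These 2 sums are not separate, since Pdgfra (13, 32, 24 and 47 reads) is in both lists. Of the fibroblast genes 5 differences were positive and 6 negative, and of the endoderm genes 2 and 6. Exon reads of an ATAC-seq library come from closed as well as open DNA, so the lists do not measure the share of any cell type.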

How the data were processed

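ATAC-seq read densities were taken from 1 deposited table of 46406 gene rows for 2 control and 2 Zscan4 OE libraries. The submitters' processing notes name mm10, featureCounts, Trimmomatic and Bowtie2. The sources used here give no versions, read filters, treatment of duplicates or Tn5 shift. The deposited values are RPKM, per the labels, but the library total behind them changes from row to row among 8 totals. These totals were recovered from 2484 short RNA genes of known length, and reads, exon length and the total used were found for each row as the smallest whole numbers that give its values. All 38361 rows with 2 or more values above 0 allowed exactly 1 rotation of the totals. Of 5918 rows with 1 value, 1546 allowed more, 6 members among them, and the reading with fewest reads was taken. Totals were assigned to libraries in rotation order so that the share of reads on rows was most alike (ratio 1.36, against 4.17 for the next assignment), and values were rescaled to each library's own total.

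Values were compared as log2(RPKM + 0.1) by limma (version 3.58.1; R version 4.3.3) with a trended eBayes step and no covariate, after dropping rows whose mean RPKM was below 0.1. Sums were tested with an exact permutation test and given exact Poisson 95% intervals. Promoters were searched in Python 3.11.15 and aligned with Biopython 1.88. Scripts were tested on simulated data. Named were members with 20 or more reads, those with most reads in a family, the 10 with the smallest p, rows at 0 in families with 8 or fewer such rows, and members with 5 or more reads whose groups did not overlap. Other members are named where a count of 5 or fewer or a contrast needed them, after their values were seen. The members and lists were chosen with earlier results of these data known. Alternatives were other pseudocounts, filters and scalings, a replicate block, and leaving out each library.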

Additional observations from a re-analysis of the deposited data

How the results depend on the processing

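No row passed over the table under pseudocounts of 1 or 0.01, no filter, quantile normalization, median centring or the values as deposited. With rows of 20 or more reads 4 were called higher and 1 lower, none of them a member. Leaving out 1 library gave 0 to 4530 higher and 0 to 6 lower calls, the lone library of a group being assumed to vary like the other group. With the replicate number as a block 0 rows were higher and 0 lower, and at an unadjusted p under 0.05 there were 1701 and 718. The deviations of same-numbered libraries correlated at 0.042 over 42989 tested rows and at 0.129 over 19012 rows with 20 or more reads. The labels say nothing of a shared culture or day and there are only 2 numbers a group, so pairing was not used in the reported values. The ratio of the members' sum ran from 1.096 to 1.62 when a library was left out. It was 3.84 in the values as deposited, where the library totals are mixed, and 0.98 for members with fewer than 20 reads, a choice made after seeing the data, as was leaving out Zfp750, Patl2 and Pramel6.

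Of 27 members compared across settings 14 kept their sign in every setting in which they were tested. The others turned as follows, with the cause not tested. Under quantile normalization Khdc1b was at −0.45, Nelfa at −0.11, Pramel1 at −0.28, Pramel7 at −0.36 and Usp17lc at −0.028. Under median centring Nelfa was at −0.25 and Abcb5 at −0.019. As deposited Tcl1b2 was at 0.53, Ubtfl1 at 0.74 and Zscan4-ps1 at 1.16, and with a pseudocount of 0.01 Zscan4-ps1 was at 0.89. Leaving out 1 library gave −0.026 to 0.54 for Abcb5, −0.52 to 1.21 for Arg2, −1.66 to 0.51 for Duxf3, −0.42 to 2.07 for Khdc1b, −0.53 to 0.56 for Nelfa, −1.06 to 0.47 for Pramef12, −0.36 to 0.94 for Pramel1, −0.40 to 1.13 for Pramel7, −1.81 to 0.84 for Tcl1b2, −0.44 to 0.014 for Ubtfl1, −0.96 to 1.81 for Usp17lc, −0.15 to 1.77 for Usp26 and −1.38 to 1.13 for Zscan4-ps1. The family ratios that crossed 1 ran from 0.896 to 1.98 for Khdc1, 0.929 to 1.88 for Pramef, 0.503 to 2.29 for Tcl1b (1.28 without Tcl1b2) and 0.403 to 1.18 for Zscan4. A ratio could not be given for Tcstv and Tdpoz, with 0 reads in both controls, nor where the control left had 0 reads (Zscan4 and Duxf without control 1, Khdc1 and Usp17l without control 2), so the ranges of Zscan4 and Khdc1 leave out that case. Depth limits all of these: 1 read was 0.942 RPM in control 1 and 0.204 in Zscan4 OE 2.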
